A study of Mus musculus with 4 samples.

Results

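The 10 genes described here encode the classical and accessory machinery of major histocompatibility complex class II (MHCII) presentation, and were taken by name from a table of 23366 gene symbols: Cd74, H2-Aa, H2-Ab1, H2-Eb1, H2-DMa, H2-DMb1, H2-DMb2, H2-Oa, H2-Ob and Ciita. All 10 passed the filter on low counts, as did 10865 genes in all. RNA was sequenced from medullary thymic epithelial cells (mTECs) of wild-type C57BL/6 mice aged 6 to 8 weeks, with 10 mice in each library, 2 female pools and 2 male pools, to compare the mTEC transcriptome of the sexes. The cells had been sorted as viable, CD45-, MHCII+ and Ly51low, so that MHCII protein was itself a criterion of the sort and the presence of these transcripts is not a finding. Reads counted on genes numbered 3508921 and 1976272 in female pools 1 and 2, and 7103627 and 3344471 in male pools 1 and 2.

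Class II molecules present peptides from endosomal compartments to CD4+ T cells. An alpha and a beta chain pair in the endoplasmic reticulum with the invariant chain, encoded by Cd74, which blocks the groove and directs the complex to endosomes, where proteases trim it to the peptide CLIP. H2-DM, a heterodimer of H2-DMa with a product of H2-DMb1 or H2-DMb2, exchanges CLIP for other peptides, and H2-O, a heterodimer of H2-Oa and H2-Ob, inhibits H2-DM. Ciita is the coactivator that assembles on the X and Y boxes of class II promoters with the RFX, CREB and NF-Y factors. In the thymic medulla, mTECs, dendritic cells and B cells all carry class II and present self antigens to developing T cells. C57BL/6 mice transcribe H2-Eb1 but lack a functional alpha chain for it, and their only classical surface product is I-A, made of H2-Aa and H2-Ab1.

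Of the 10 genes, 8 lie on chromosome 17 of NCBIM37 (mm9), the assembly to which the authors aligned the reads. H2-Ab1 spans 34400154 to 34406363 on the plus strand and meets the 3' end of H2-Aa, which spans 34406276 to 34424772 on the minus strand. Their exons share 17 bases, and since no source used here names a strand setting for the counts, reads from those bases cannot be told apart. H2-Eb1 spans 34442828 to 34453144, H2-Oa 34229285 to 34232179, H2-DMa 34272127 to 34276046, H2-DMb2 34280252 to 34288498, H2-DMb1 34290017 to 34297168 and H2-Ob 34375848 to 34390850, all on the plus strand.

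Class II promoters were examined for the X and Y boxes named above, and RefSeq sequences from 250 bases before to 50 bases after each transcription start (GRCm38.p6) were found for 7 of the 10 genes. The stretches below were read from that table, are given 5' to 3' in the direction of the gene, and each matched NCBIM37 at a single place on chromosome 17. Capitals mark the Y box core, TGATTGG, which NF-Y binds, and, where it is found, the X box letters AACNNATGA. Both motifs were chosen after the sequences had been read and were searched on both strands.
H2-Aa (chr17:34424812-34424868, minus strand): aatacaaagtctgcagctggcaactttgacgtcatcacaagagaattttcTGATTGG
H2-Eb1 (chr17:34442701-34442757, plus strand): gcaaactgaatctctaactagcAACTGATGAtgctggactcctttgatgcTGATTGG
H2-Ob (chr17:34375741-34375797, plus strand): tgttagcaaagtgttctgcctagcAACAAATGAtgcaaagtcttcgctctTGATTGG
H2-DMb2 (chr17:34282052-34282108, plus strand): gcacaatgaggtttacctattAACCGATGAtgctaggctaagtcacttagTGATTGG

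The Y box core lay 50 bases before the RefSeq start in H2-Aa, 61 in H2-Eb1, 59 in H2-Ob and 92 in H2-DMb2. It was also found in H2-Oa (45 bases) and H2-DMb1 (63 bases). The X box letters ended 17 bases before the Y core in H2-Ob, 19 in H2-Eb1 and 20 in H2-DMb1 and in H2-DMb2. The H2-DMb2 stretch lies outside annotated exons but within the span of the gene given above, as its RefSeq start is downstream of the first GENCODE start. Neither motif was found in either of the 2 starts of H2-DMa. Of 32851 promoters of the same length, 7.82% held the Y core, 2.85% the X letters and 0.307% both. A match describes these letters only, and no match says nothing of the factors. H2-Ab1 and Ciita had no entry in the table, and the Cd74 promoter was not used here.

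The 2 genes outside the class II region are Cd74, at 60963502 to 60972300 of chromosome 18, and Ciita, at 10480237 to 10527657 of chromosome 16, both on the plus strand. The classical genes were among the most abundant transcripts of every pool. Cd74 ranked first among all genes by read count in 3 pools and at place 2 in male pool 2, and H2-Ab1 ranked at place 2 in 3 pools and at place 4 in male pool 2. Together the 10 genes took 11.2% and 10.8% of the reads counted on genes in females, against 9.37% and 7.98% in males, each pair in the order of pools 1 and 2, as throughout. Exact binomial 95% intervals, which cover counting error only, ran from 11.2% to 11.3% and from 10.7% to 10.8% for the female shares, and from 9.35% to 9.39% and from 7.95% to 8.01% for the male shares. The pools of a sex thus differed by more than counting error. Cd74, H2-Aa, H2-Ab1 and H2-Eb1 made up 97.1% to 97.5% of the reads of the group.

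Levels of different genes were compared per length, as RPKM over the union of annotated exons, scaled with TMM factors that correct each library for its composition. Cd74 had 33895 and 33562 RPKM in females against 24120 and 29556 in males. H2-Ab1 had 17564 and 17669 in females and 13430 and 16621 in males. H2-Eb1, the beta chain without a partner in this strain, ranged from 7021 to 10561 RPKM, and H2-Aa from 6258 to 9121. Although H2-Eb1 lay above H2-Aa in each pool, these ranges overlapped. The pair changed places when the longest transcript was taken as the gene's length, since the annotated exons of H2-Aa sum to 1987 bases and its longest transcript has 1132.

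The accessory genes lay far lower. The peptide editors H2-DMa, H2-DMb1 and H2-DMb2 had means of 531, 350 and 198 RPKM over the 4 pools, and the inhibitor chains H2-Oa and H2-Ob 233 and 99.1. Ciita had the lowest mean, 30.6 RPKM. The order of the levels was the same in all 4 pools except for H2-Oa and H2-DMb2, whose ranges overlapped (193 to 262 and 136 to 256 RPKM). Every other pair of neighbours except H2-Eb1 with H2-Aa was separated in all 4 pools. H2-DMb1 and H2-DMb2 are copies that are alike over part of their sequence, and both levels are uncertain. Of the 50-base windows of H2-DMb1 transcripts, 27.1% occur exactly in H2-DMb2 and 54.0% match it with up to 2 mismatches. Of the H2-DMb2 windows, 49.2% match H2-DMb1 in the same way. Reads that align to both copies stayed uncounted in the table.

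**Figure D1:**
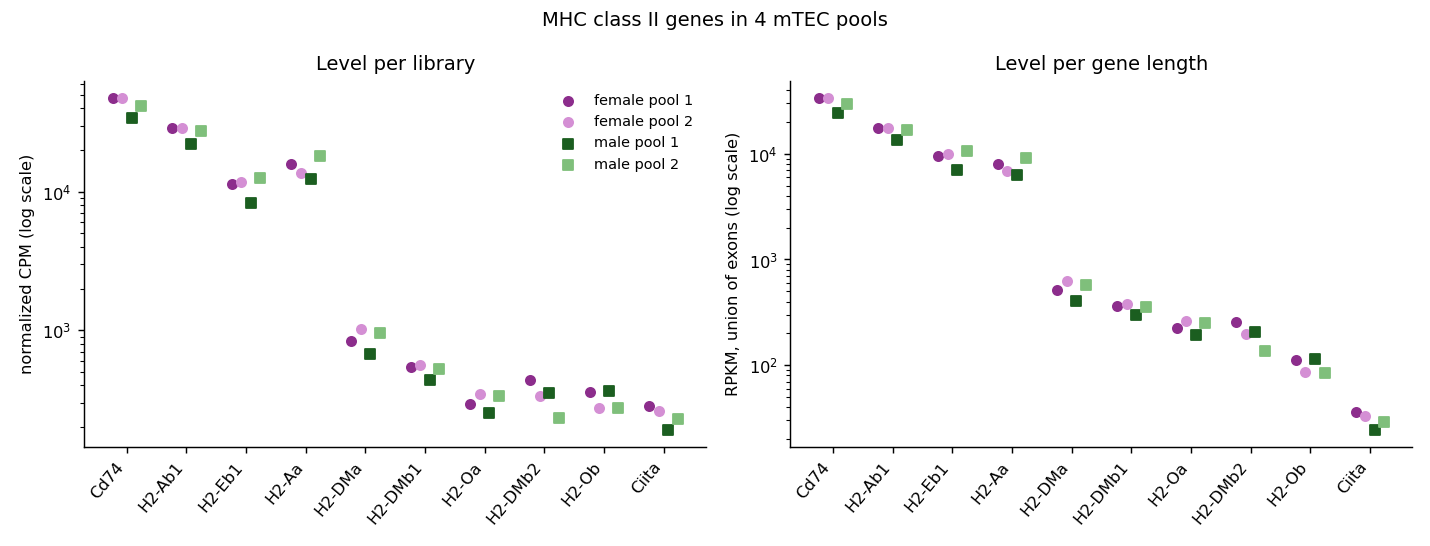
Normalized CPM (left) and RPKM over the union of exons (right) of the 10 class II genes, both on log axes, with 1 point for each of the 4 pools (circles female, squares male). Cd74 lies highest, at 24120 to 33895 RPKM, and Ciita lowest, with a mean of 30.6 RPKM. Male pool 1 is the lowest of the 4 points in 8 genes by normalized CPM (2657 of all 10865 tested genes), but in 0 genes with scaling to library size alone (1103 of all tested genes).

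Each gene was then compared between the sexes as normalized CPM, which sets counts to a common library size and is suited to comparing a gene with itself. Cd74 had 47792 and 47322 normalized CPM in females against 34009 and 41675 in males. Both male values lay below both female values, and the log2 fold change of male over female was -0.33 (standard error 0.58). H2-Ab1, the beta chain of I-A, had 28876 and 29047 in females and 22078 and 27326 in males, again without overlap, with a log2 fold change of -0.23 (standard error 0.56). Ciita had 284 and 259 in females and 189 and 227 in males, also without overlap, with a log2 fold change of -0.38 (standard error 0.37). H2-DMb1 was the fourth gene with both male pools below both female pools, at 542 and 558 in females and 440 and 529 in males (log2 fold change -0.18, standard error 0.40).

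In the other genes the sexes overlapped, although with scaling to library size alone H2-Eb1, H2-DMa and H2-Oa had both male pools below both female pools. H2-Aa, the alpha chain of I-A, had 15976 and 13739 normalized CPM in females and 12434 and 18123 in males, so that the males held both the lowest and the highest pool (log2 fold change 0.04, standard error 0.55, and -0.10 with scaling to library size alone). H2-Eb1 behaved in the same way, at 11331 and 11740 in females and 8348 and 12557 in males. H2-DMa had 840 and 1028 in females and 670 and 948 in males, and H2-Oa had 295 and 345 in females and 254 and 333 in males. The log2 fold change was -0.14 for H2-Eb1, -0.21 for H2-DMa and -0.13 for H2-Oa. H2-DMb2 had 437 and 336 in females and 352 and 232 in males, and its log2 fold change was -0.40 (standard error 0.42). That value was -0.75 with male pool 1 left out and -0.13 with male pool 2 left out. H2-Ob had 359 and 277 in females and 366 and 273 in males, and its log2 fold change was 0.01 (standard error 0.41), or -0.034 with scaling to library size alone.

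The quasi-likelihood test of edgeR, adjusted by Benjamini-Hochberg over all 10865 genes, called 0 of the 10 genes at 0.05 (adjusted p = 0.99997 for each), and 0 genes in all (0%). Without adjustment 48 genes (0.442%) had a p under 0.05, and 0 of the 10 did, the smallest unadjusted p of edgeR among them being 0.334, for Ciita. By edgeR's exact test 8 genes passed the adjusted threshold (0.0736%) and by DESeq2 3 genes (0.0276%), in each case with 0 of the 10. The 95% intervals were wide: for Cd74 the fold of male over female lay between 0.305 and 2.08, for H2-Aa between 0.413 and 2.56 and for Ciita between 0.417 and 1.41, so a 2-fold difference in either direction is within the intervals of Cd74 and H2-Aa, and a missing call is not evidence of equal levels. Both male pools lay below both female pools in 4 of the 10 genes and above them in 0. Over all tested genes this held for 11.7% (below) and 9.47% (above). The count below was 7 of 10 with scaling to library size alone, where it held for 8.99% of tested genes, and 3 of 10 with DESeq2's size factors.

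The log2 fold change was below 0 in 8 of the 10 genes, with a median of -0.20, against 46.8% below 0 and a median of 0.03 over all tested genes. The 10 genes share their pools and are not independent replicates. The count was 10 of 10 with scaling to library size alone, where 55.0% of all tested genes were below 0. It was 6 of 10 without male pool 1, near the 53.0% of all tested genes in that fit, and H2-Eb1, H2-DMa and H2-Oa then had log2 fold changes of 0.11, 0.01 and 0.05. Without male pool 2 the count was 9 of 10, beside 50.6% of all tested genes, and H2-Aa was then at -0.25. Summed over the group, the level was 106731 and 104651 normalized CPM in females and 79139 and 102223 in males, a log2 ratio of -0.22. Leaving out male pool 2 gave -0.41, and leaving out male pool 1 gave -0.06. With DESeq2's size factors the sum was 105797 and 104530 in females and 78000 and 104753 in males, and the sexes overlapped.

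**Figure D2:**
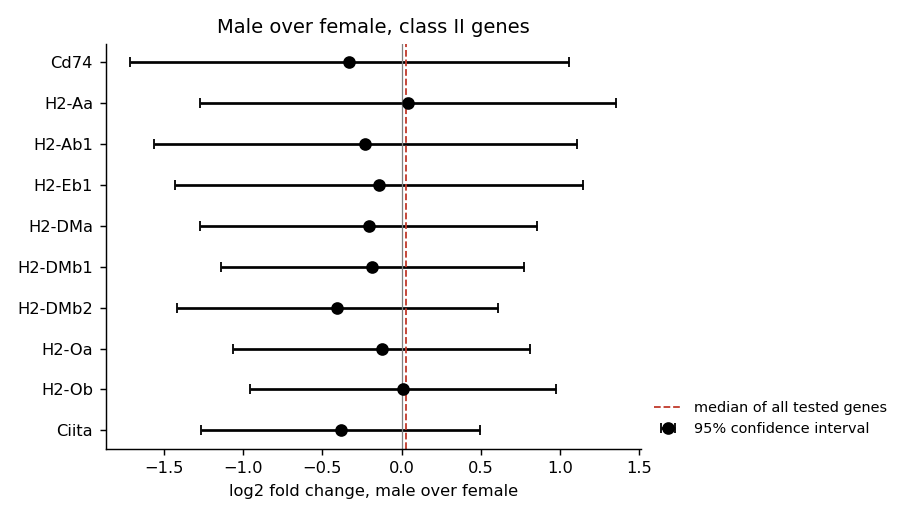
Log2 fold change of male over female for each class II gene (points) with 95% confidence intervals from edgeR's quasi-likelihood fit over 2 pools of each sex, the dashed line marking the median of all tested genes (0.03). Every interval crosses 0, and the points run from -0.40 for H2-DMb2 to 0.04 for H2-Aa, which was at -0.10 with scaling to library size alone.

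Ratios between genes of the same pool do not depend on the scaling of the libraries, and show where the genes did not vary in parallel. For the alpha and beta chains of I-A, the ratio of H2-Aa to H2-Ab1 counts was 0.553 and 0.473 in females against 0.563 and 0.663 in males. The sexes did not overlap, but the distance between the nearest pools of the 2 sexes, female pool 1 and male pool 1, was small, and their 95% counting intervals (0.548 to 0.559 and 0.559 to 0.567) adjoined. The ratio of Cd74 to the 3 classical chains was 0.851 and 0.868 in females and 0.793 and 0.718 in males. The invariant chain was lower relative to the chains it accompanies in both male pools. Ciita per H2-Ab1 had lower values in both male pools (0.0098 and 0.0089 in females, 0.0086 and 0.0083 in males). However, the 95% counting interval of female pool 2 (0.0082 to 0.0097) overlapped those of male pool 1 (0.0081 to 0.0090) and male pool 2 (0.0077 to 0.0090). The H2-Aa, Cd74 and Ciita ratios were the 3 of 11 in which the sexes did not overlap. With 2 pools against 2 an exact permutation test cannot give a two-sided p below 0.333, so none was tested. Without a sex difference, separation in either direction has that same probability of 0.333 for each ratio. A count of 3 of 11 does not exceed this share and is given as a description.

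The chains of the peptide editor and of its inhibitor split by gene. H2-Oa per H2-DMa was the steadiest ratio of the 11, at 0.351 and 0.335 in females and 0.379 and 0.351 in males, with the highest pool 1.13 times the lowest. The corresponding ratio of H2-Ob to the sum of H2-DMb1 and H2-DMb2 was 0.367 and 0.309 in females and 0.463 and 0.359 in males, with the highest pool 1.496 times the lowest. For the chains of H2-O, H2-Ob per H2-Oa was 1.22 and 1.44 in female and male pool 1. That ratio was 0.803 and 0.821 in the pools numbered 2, so that the highest pool was 1.80 times the lowest. H2-DMb2 per H2-DMb1 was 0.806 and 0.800 in the pools numbered 1, and 0.602 in female pool 2 and 0.439 in male pool 2. In both ratios the 95% counting intervals of pool 1 and pool 2 of a sex were separate (for H2-DMb2 per H2-DMb1, 0.755 to 0.861 and 0.547 to 0.663 in females, and 0.762 to 0.840 and 0.398 to 0.483 in males). H2-DMa was also set against the sum of both H2-DMb copies, and this ratio was 0.857 and 0.847 in the pools numbered 1 and 1.15 and 1.25 in the pools numbered 2. The sum also lacks the reads that align to both copies, so this is not a full ratio of alpha to beta chain. The H2-O to H2-DM ratio of summed counts was 0.359 and 0.323 in females and 0.424 and 0.354 in males, and the sexes overlapped.

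**Figure D3:**
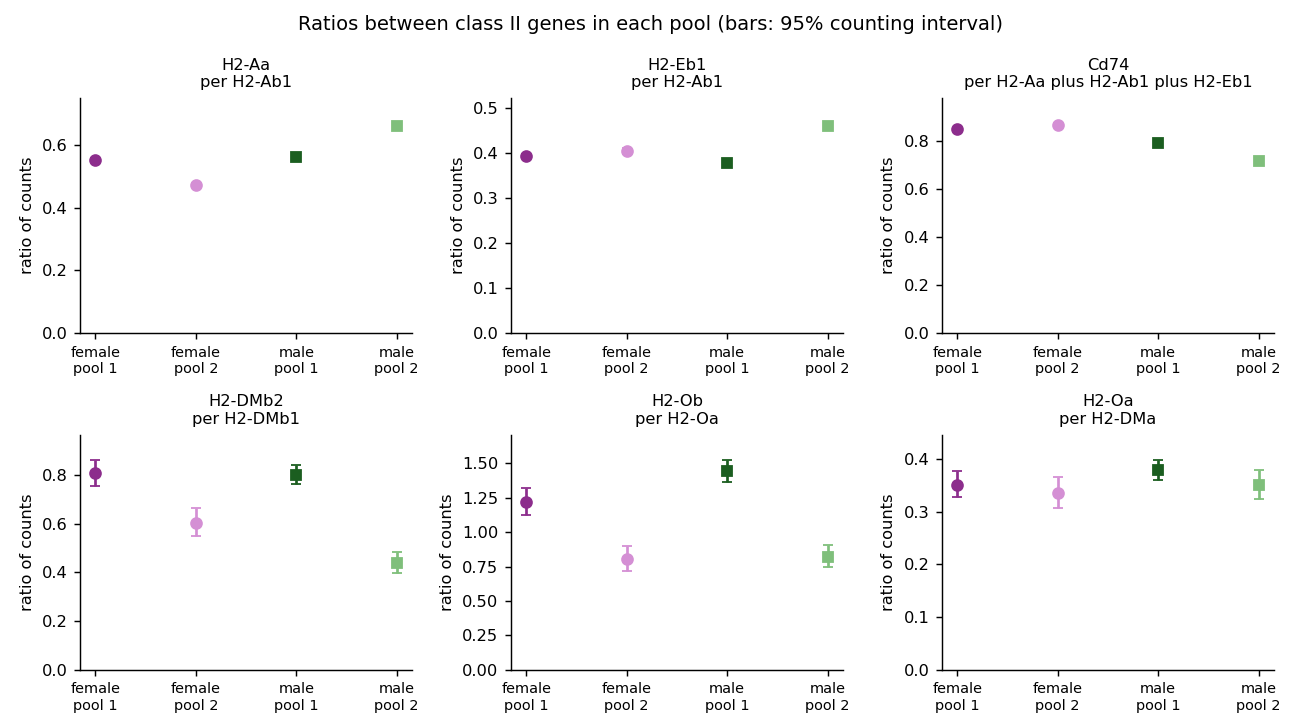
Ratio of read counts between pairs or groups of class II genes in each of the 4 pools, on linear axes that start at 0, with bars for the 95% counting interval of each ratio. H2-Oa per H2-DMa stays between 0.335 and 0.379, whereas H2-Ob per H2-Oa and H2-DMb2 per H2-DMb1 are lower in both pools numbered 2 than in both pools numbered 1.

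In normalized CPM, H2-DMb2 and H2-Ob were the 2 of the 10 genes whose pool 2 value lay below that of pool 1 in females and in males, which held for 35.0% of all tested genes. H2-DMb2 in pool 2 was 0.769 of pool 1 in females and 0.660 in males, and H2-Ob 0.771 and 0.746. H2-DMa was 1.22 and 1.41, and H2-Oa 1.17 and 1.31. H2-Ab1, H2-Eb1 and H2-DMb1 were also above 1 in both sexes, at 1.01, 1.04 and 1.03 in females and 1.24, 1.50 and 1.20 in males. The remaining genes, Cd74, H2-Aa and Ciita, were below 1 in females and above 1 in males. These male ratios rest on the TMM factors, since scaling to library size alone lowered each of them to below 1: 0.816 for H2-Ab1, 0.992 for H2-Eb1, 0.793 for H2-DMb1, 0.933 for H2-DMa, 0.864 for H2-Oa, 0.808 for Cd74, 0.961 for H2-Aa and 0.792 for Ciita. On that scale 6 of the 10 genes had a lower pool 2 value in each sex (47.0% of tested genes) and 0 a higher one (18.3%), against 5 of 10 higher by normalized CPM (31.3%). H2-DMb2 and H2-Ob were below 1 in females and males with each of the 4 scalings. The labels do not say what a pool number stands for, and pools of 1 number were not taken as paired.

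**Figure D4:**
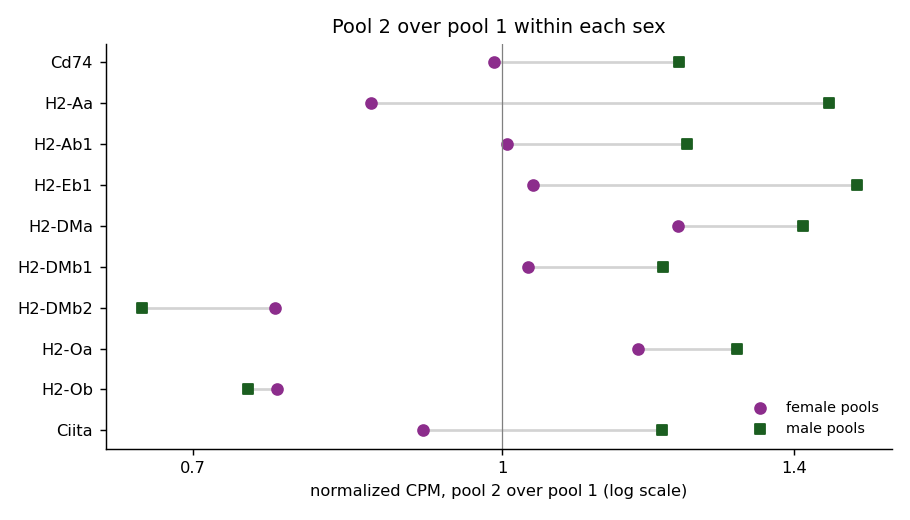
Normalized CPM of pool 2 divided by that of pool 1 for each class II gene, in females (circles) and males (squares), on a log axis, with a line joining the sexes. H2-DMb2 (0.769 and 0.660) and H2-Ob (0.771 and 0.746) lie below 1 in both sexes, and 5 genes lie above 1 in both, but 0 with scaling to library size alone.

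Class II genes are active in several cell types of the thymic medulla, and transcripts of these cells were measured in the same pools. Markers of B cells lay lower in pool 2 in both sexes in 7 of 7 tested genes, beside 35.0% of all tested genes. Their summed level over 8 genes was 4466 and 2915 normalized CPM in females and 3663 and 2442 in males. The 8 macrophage markers summed to 2096 and 4628 in females and 1488 and 6329 in males. Of these, 6 of 8 were higher in pool 2 of both sexes, beside 31.3% of all tested genes. Conventional dendritic cell markers summed to 710 and 741 in females and 545 and 908 in males, and plasmacytoid dendritic cell markers to 647, 643, 571 and 840 in the same order. The most abundant of these genes by mean normalized CPM were Cd79a (1815) and Cd79b (545) for B cells, Lyz2 (1922), C1qb (669) and C1qc (400) for macrophages, Flt3 (331), Xcr1 (98.0) and Batf3 (97.2) for conventional dendritic cells, and Bst2 (395), Tcf4 (146) and Siglech (85.1) for plasmacytoid dendritic cells. Of the 4 plasmacytoid markers, 3 were lower in pool 2 of both sexes, beside 35.0% of all tested genes. The exception was Bst2, with 305 and 386 in females and 250 and 638 in males. Ptprc, which encodes the CD45 that the sort selected against, had 279 and 179 in females and 303 and 218 in males.

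Transcripts of the labelled cell type were present at lower levels, and in each of the 4 pools the B cell and the macrophage sums were above the epithelial sum. The 9 epithelial genes summed to 374 and 647 in females and 416 and 615 in males, led by Spint2 (mean 279), Krt8 (88.6) and Krt18 (59.0). The 5 mTEC genes, led by Cd40 (346), Cd80 (33.7) and Aire (24.8), summed to 444 and 485 in females and 372 and 444 in males. Without Cd40, which B cells and dendritic cells also express, the other 4 summed to 77.4 and 104 in females and 73.2 and 105 in males. Cortical TEC genes, led by Ly75 (28.0), Psmb11 (21.9) and Prss16 (1.97), summed to 53.6 and 49.2 in females and 44.5 and 60.5 in males, and Enpep, the gene of Ly51, had at most 1 count in a pool. The 8 thymocyte markers, led by Lck (129), Cd8a (128) and Cd3g (94.2), summed to 1037 in male pool 1 against 400 and 321 in females and 387 in male pool 2. Male pool 1 also had the lowest normalized CPM of 8 of the 10 class II genes, and of 2657 of all 10865 tested genes. With scaling to library size alone male pool 1 was still highest in thymocyte markers, at 1228, but was lowest in 0 class II genes, while male pool 2 was lowest in 9. On that scale male pool 1 was lowest in 1103 of all tested genes and male pool 2 in 6591, so male pool 2 was lowest in most genes of any kind. Between the sexes, the median log2 fold change was -0.32 for B cell markers (0 of 7 above 0) and 1.10 for thymocyte markers (7 of 7 above 0). Over all tested genes 46.8% were below 0. Neither list held a gene past the adjusted threshold. By normalized CPM both male pools lay above both female pools in 2 of 7 thymocyte genes (9.47% of all tested genes). They lay below both in 0 of 7 B cell genes (11.7%). Genes of a list share their pools and are not independent replicates. The part of these cells in the class II values was not tested, and in whole pools fewer cells of a type and less RNA per cell cannot be told apart.

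**Figure D5:**
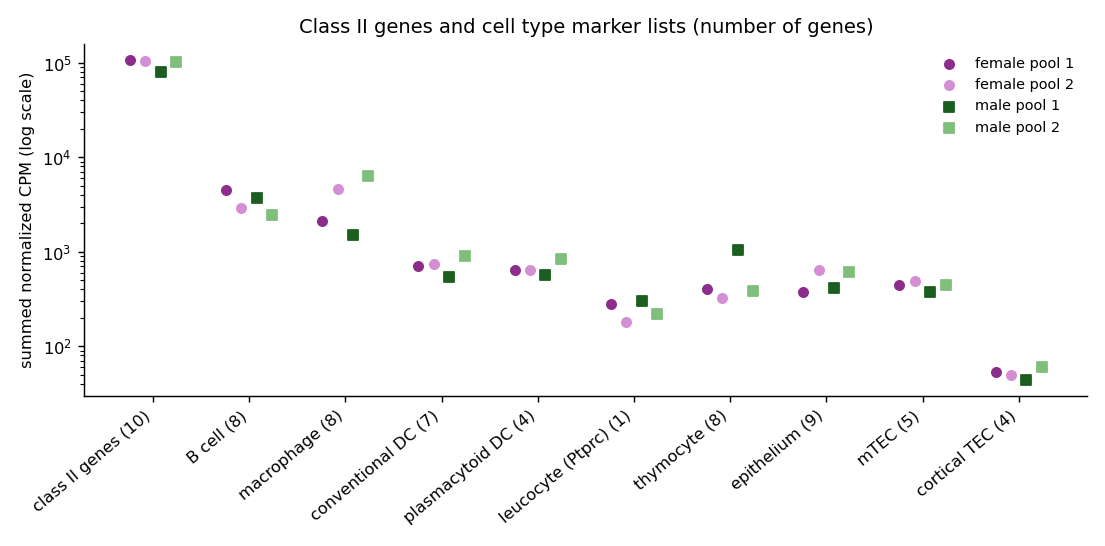
Summed normalized CPM on a log axis of the 10 class II genes and of 9 cell type marker lists, with 1 point for each pool and the number of genes in parentheses. B cell markers are lower and macrophage markers higher in both pools numbered 2, and thymocyte markers are highest in male pool 1 (1037).

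Of 30 other genes of the class II pathway in the table, 29 passed the filter on low counts, and 16 had a log2 fold change above 0 and 13 below, with a median of 0.01. None passed the adjusted threshold (adjusted p = 0.99997 for each, quasi-likelihood test of edgeR) or had an unadjusted p under 0.05, beside the 0.442% of all tested genes given above. The pseudogene H2-Ea-ps, the disabled alpha chain of I-E, had 1 count in each female pool and 2 and 5 counts in the male pools. H2-Eb2, a further beta chain gene, had 43.8 and 31.5 normalized CPM in females and 33.2 and 47.9 in males. Among 15 regulators, from -0.42 to 0.38 on the log2 scale, the highest mean normalized CPM was that of Irf8, an interferon regulatory factor of dendritic and B cells (403 and 820 in females, 348 and 566 in males). The RFX subunits Rfx5, Rfxap and Rfxank, named after their values were seen, had log2 fold changes of 0.00, -0.07 and 0.01.

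Of 8 antigen processing genes, 7 had a pool 2 value above that of pool 1 in females and in males, beside 31.3% of all tested genes, and 3 did with scaling to library size alone. Cst3, the cysteine protease inhibitor cystatin C, had 10344 and 17338 normalized CPM in females and 8942 and 33747 in males. Ctss, the cathepsin that degrades the invariant chain, had 1112 and 1123 in females and 801 and 1600 in males. The log2 fold changes of male over female were 0.62 for Cst3 (standard error 0.77) and 0.10 for Ctss (standard error 0.51), each smaller than its standard error. Of the 5 turnover genes and partners of class II, Cd83, which stabilizes surface class II, had 1265 and 1270 in females and 1373 and 1115 in males, and Mif, a ligand of the invariant chain, had 444 and 797 in females and 460 and 1345 in males.

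To find the tested genes whose profile over the 4 pools was most like that of the classical genes, log2 normalized CPM was centred over the pools and set against the mean of Cd74, H2-Aa, H2-Ab1 and H2-Eb1, which stood at 0.11 and 0.07 in females and -0.31 and 0.13 in males. Among 7862 genes with at least 10 CPM on average, members included, the 5 nearest other genes were BC051537, Sbf2, Dnase2a, Sh3bp2 and Camta2, with root mean square differences of 0.02 to 0.03. The 4 genes that make up the mean, and so lie near it in part by construction, stood at places 24 (H2-Ab1, with 0.06), 38 (H2-Eb1), 111 (Cd74) and 242 (H2-Aa). Outside the mean, H2-DMb1 stood at place 42 with 0.07 and H2-Oa at place 135 with 0.10, whereas H2-Ob and H2-DMb2 stood at places 3692 and 4840 with 0.34 and 0.40. The profile rests on the TMM factors: with scaling to library size alone the class II sum was lowest in male pool 2 (79770), not in male pool 1 (93692). Over 4 pools many genes lie near any profile, and the order is given as a description.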

How the data were processed

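The deposited table holds raw read counts per gene symbol for 2 female and 2 male pools of 10 mice. The authors removed low-quality reads with Trimmomatic, aligned 50-base reads to mm9 with TopHat2 and counted with HTSeq-count; versions, gene annotation and strand setting are not given in the sources used here. Entries assigned to no gene, non-unique alignments included (66.9% to 70.2% of a pool's summed counts), were left out. This need not equal the share of reads. No pair of pools agreed within sampling noise (lowest chi-square per degree of freedom 11.5). Each library is a separate pool of mice per the labels.

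The genes and lists were chosen with earlier results of these data known. Males were compared with females by edgeR 4.0.16 (quasi-likelihood test, TMM factors of 1.05, 1.03, 1.18 and 0.780, filterByExpr with a minimum count of 10, prior count 0.125, sex as the only term, two-sided, Benjamini-Hochberg at 0.05), with limma 3.58.1 in R 4.3.3 and DESeq2 1.42.0 as an alternative. Standard errors are the log2 fold change over the square root of F. The script was tested on simulated counts with large changes only. Lengths came from GENCODE M1 (NCBIM37), with Ciita joined over 2 gene IDs of that symbol, and promoter sequences from RefSeq. Spi1 was found as Sfpi1 and Adgre1 as Emr1. Other pathway genes are named if they are class II loci, have an unadjusted p under 0.05 or are the 2 highest of their role by mean normalized CPM, and marker genes if among the 3 highest of their list. The RFX subunits, and Enpep for the sort, were named outside this rule, and 2 genes within it are not reported here. Counting intervals are exact binomial and cover counting error only. Figures were drawn with Python 3.11.15 and matplotlib 3.10.9.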

Additional observations from a re-analysis of the deposited data

How the results depend on the processing

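None of the 10 class II genes passed an adjusted p of 0.05 in any of the alternatives run (smallest adjusted p 0.428, without male replicate 1). The number of all tested genes past it was 26 unfiltered, 5 if scaled by library size only, 3 by DESeq2 and 8 by edgeR's exact test, and ran from 0 to 646 with a pool left out: 646 without male replicate 1 and 70 without male replicate 2. With the replicate block it was 17. Pool 2 minus pool 1 correlated at 0.51 over genes between the sexes, but with 2 pairs the pools share only a number. The cause was not tested. The count of class II genes below 0 ran from 6 to 9 with a pool left out. The log2 ratio of summed class II genes was lowest without male replicate 2, at -0.41, and highest without male replicate 1, at -0.060.

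Chosen after seeing the data, the other scalings were also applied to the order of the pools. Both male pools lay below both female pools in 7 class II genes by library size only (8.99% of all tested genes). The count was 4 in the main analysis (11.7% of all tested genes) and 3 with DESeq2's size factors (11.3%).

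Genes near 0 changed sign. H2-Aa was at -0.10 with library size only, and from -0.25 to 0.27 with a pool left out. H2-Ob was at -0.0046 by upper-quartile scaling, -0.034 by library size only and -0.0015 among genes over 1 CPM in 2 or more pools, and from -0.23 to 0.21 with a pool left out. With a pool left out, H2-Eb1 ran from -0.46 to 0.11, H2-DMa from -0.47 to 0.011 and H2-Oa from -0.32 to 0.046. Cd74, H2-Ab1, H2-DMb1, H2-DMb2 and Ciita stayed below 0 in all 13 alternatives. With library size only, the medians of other pathway genes, conventional dendritic cell markers, cortical TEC markers and macrophage markers were -0.079, -0.11, -0.058 and -0.12, opposite in sign to the main values. With the longest transcript as length, 8 of 10 genes kept their place in the order of levels.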
